A study of Homo sapiens with 2 samples.

Results

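The genes described here are 10 members of the AP-1 and immediate early group: the FOS family (FOS, FOSB, FOSL1, FOSL2), the JUN family (JUN, JUNB, JUND), the zinc finger factor EGR1, the small MAF factor MAFF and the phosphatase DUSP1. They were taken by name, with each symbol found in the authors' deposited table and joined by its Entrez gene ID to the count files, where they are 10 of 25702 genes. RNA sequencing was done on K562, an established human erythroleukemia line that carries the BCR-ABL1 fusion, in asynchronous culture. The control culture was kept for 48 h in the solvent DMSO, and the other for 48 h in 1 µM cabozantinib (XL184), which blocks several receptor tyrosine kinases, MET and the VEGF receptors among them. Both cultures grew in RPMI medium with fetal bovine serum. With 1 library per group there was no replicate check and no test was made, and every interval is an exact 95% interval that covers counting error only.

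AP-1 is a dimer of basic leucine zipper proteins. A FOS protein must pair with a JUN protein, whereas JUN proteins can also pair with each other or with ATF factors. Many of these genes are switched on at once, without new protein synthesis, when growth factors, stress or kinase oncogenes activate the MAP kinases, and their messages are short-lived. Serum response factor (SRF), its ternary complex partners and CREB or ATF proteins act at their promoters. MAFF lacks a transactivation domain and pairs with the CNC factors, such as NFE2 and the NRF proteins, at MAF recognition elements. DUSP1 removes phosphate from p38, JNK and ERK and thereby closes the loop.

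The promoters are shown because members that differed in opposite directions carry the same short element. The RefSeq promoter table (GRCh38.p14) held 9 of the 10 members, all but FOSL1, and the 250 bases before each start were searched on both strands. The cyclic AMP response element TGACGTCA, a site for CREB and ATF proteins, lay before DUSP1, JUND and MAFF, and in 1.65% of all 35093 windows. In the sequences below the capitals mark the matched letters, on the strand of the gene from 5′ to 3′. The letters are from chr5:172771287-172771346 (minus strand) for DUSP1, chr19:18281789-18281848 (minus) for JUND and chr22:38201914-38201973 (plus) for MAFF, which also has another start whose window lacked the element.
DUSP1: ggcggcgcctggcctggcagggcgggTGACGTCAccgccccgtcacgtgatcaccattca
JUND: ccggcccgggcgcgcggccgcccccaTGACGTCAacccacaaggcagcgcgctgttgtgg
MAFF: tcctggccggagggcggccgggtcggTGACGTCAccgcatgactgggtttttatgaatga

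JUN is known for a variant of this element, TGACATCA, at which JUN with ATF2 binds its own promoter. It began 67 bases before the JUN start (chr1:58784081-58784140, minus strand) and occurred in 2.37% of all windows. EGR1 carried 2 CArG boxes, the sites of SRF, beginning 105 and 83 bases before its start (chr5:138465348-138465431, plus), and 1.16% of all windows held such a box. FOS has a known response element that departs from the full element in its last letters and keeps the core TGACG, and it began 64 bases before the start (chr14:75278738-75278794, plus).
JUN: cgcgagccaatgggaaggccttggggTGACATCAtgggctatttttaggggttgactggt
EGR1: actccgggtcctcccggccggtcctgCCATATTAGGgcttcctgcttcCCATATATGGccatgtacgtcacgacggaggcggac
FOS: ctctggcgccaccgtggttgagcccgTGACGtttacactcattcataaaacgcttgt

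The core TGACG, which the full element TGACGTCA contains, was present in 9 of the 10 windows of the members and in 21.2% of all windows. The members' windows were richer in G and C, with a median of 69% against 58% over all windows, and the shares were not matched for this. The AP-1 site itself, TGACTCA, was in none of the members' 250-base windows and in 4.2% of all windows. The box TATAAA was in 4 of them (DUSP1, FOS, FOSB, JUNB) and in 10.7% of all. The variant TGACATCA and the other motifs were chosen after the sequences and earlier results were known.

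With cabozantinib, 4 of the 10 genes were higher by 1.5-fold (DUSP1, FOS, FOSL1 and JUNB) and 2 were lower (JUN and MAFF). JUND and EGR1 stayed inside 1.5-fold, and FOSB and FOSL2 were below 1 CPM in both libraries. Here CPM is counts for each 1e6 counts after TMM scaling, a gene counted as measured had at least 1 CPM in at least 1 library, and a call needed a difference of 1.5-fold with a counting interval that excluded no change. Of all 12536 measured genes 8.15% were higher and 12.3% were lower by this rule. The median log2 ratio of the 8 measured members was 0.37, against 0.01 over all measured genes, but it rested on which members passed the filter: over all 10 it was -0.015. At 2-fold in place of 1.5-fold, DUSP1 was the 1 member still higher, and JUN and MAFF were still lower, beside 2.71% and 5.76% of measured genes.

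**Figure D1:**
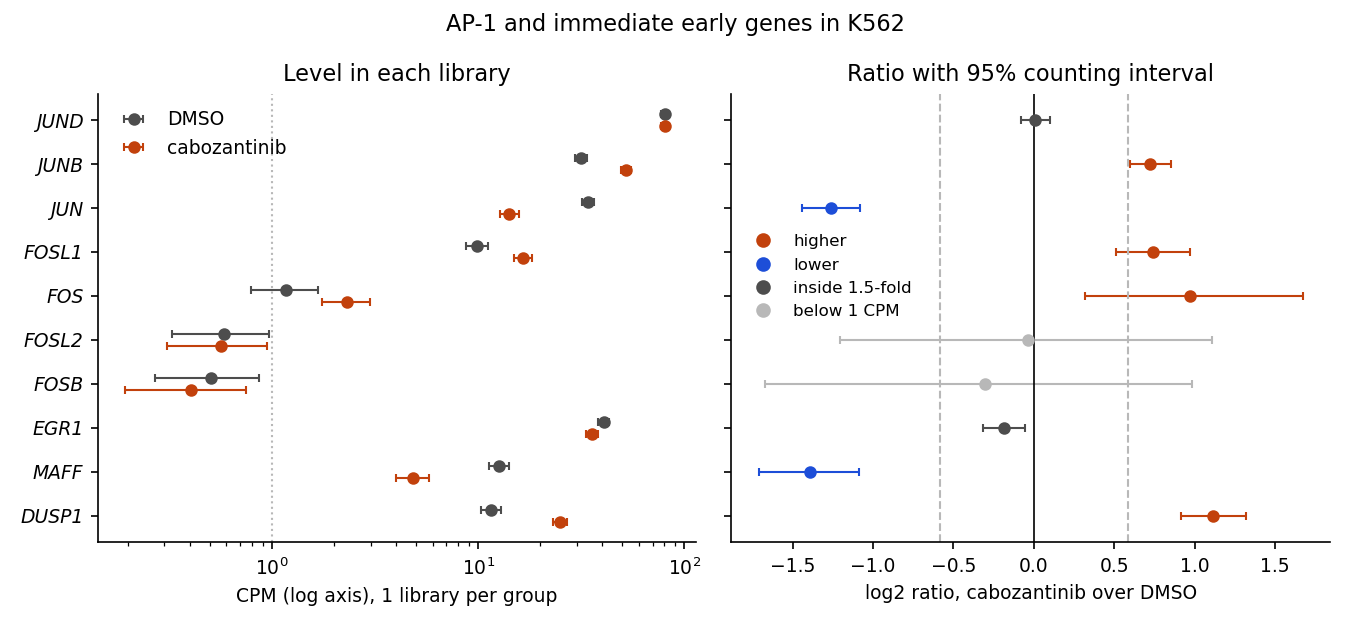
Left, the level of each gene in CPM on a log axis in the DMSO and the cabozantinib library, with exact 95% Poisson intervals and a dotted line at 1 CPM. Right, the log2 ratio of cabozantinib over DMSO with its exact 95% counting interval and dashed lines at 1.5-fold. JUN and MAFF lie wholly below the lower line, DUSP1 and JUNB wholly above the upper one, and the wide intervals of FOSB and FOSL2 rest on 10 to 15 counts.

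JUND, the JUN protein that resting cells keep and the least inducible of the 3, was the most abundant member per length. It had 2065 counts in DMSO and 1998 with cabozantinib, or 80.1 and 80.7 CPM. The log2 ratio was 0.01 (-0.08 to 0.10), so the libraries differed by less than counting error, and the sign turned to -0.07 under scaling by total counts and to -0.01 under upper-quartile factors. JUND (Entrez 3727) lies on hg19 chromosome 19, 18390563 to 18392432, minus strand, as a single exon.

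JUNB, a JUN protein that opposes JUN at many genes and is known for roles in myeloid and erythroid cells, had 813 counts in DMSO and 1290 with cabozantinib. Its level went from 31.6 to 52.1 CPM, 1.65-fold higher (1.51 to 1.80), which placed its ratio at percentile 94.5 of all measured genes. JUNB (Entrez 3726) lies on chromosome 19, 12902310 to 12904125, plus strand.

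JUN, which encodes c-Jun, the activator on which JNK acts, had 873 counts in DMSO and 350 with cabozantinib. Its level went from 33.9 to 14.1 CPM, 2.40-fold lower (2.12 to 2.72), at percentile 3.55 of all measured genes. JUN (Entrez 3725) lies on chromosome 1, 59246463 to 59249785, minus strand, and like JUNB it is a single exon in the deposited annotation. For these 3 intronless genes, reads of mature message and of other RNA or DNA of the locus cannot be told apart. The other members had 2 to 4 exons.

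Ratios between genes of the same library do not depend on the scaling. JUN had 1.07 counts for each count of JUNB in DMSO and 0.271 with cabozantinib, a 3.96-fold lower ratio (3.39 to 4.62). Against JUND, the JUN ratio was 2.41-fold lower (2.10 to 2.78) and the JUNB ratio 1.64-fold higher (1.47 to 1.83). The 3 JUN genes therefore differed unequally between the libraries, in opposite directions for JUN and JUNB whichever scaling was used.

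On the scale of RPKM, which is CPM for each kilobase of gene length, the JUN family summed to 70.4 in DMSO and 76.1 with cabozantinib. JUN held 14.5% of that sum in DMSO and 5.59% with cabozantinib, JUNB 24.7% and 37.7%, and JUND 60.9% and 56.7%. JUN thus made up a smaller and JUNB a larger part of the family under cabozantinib. Read as shares of counts, without length, the values were other but the order of the 2 libraries was the same for each gene.

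**Figure D2:**
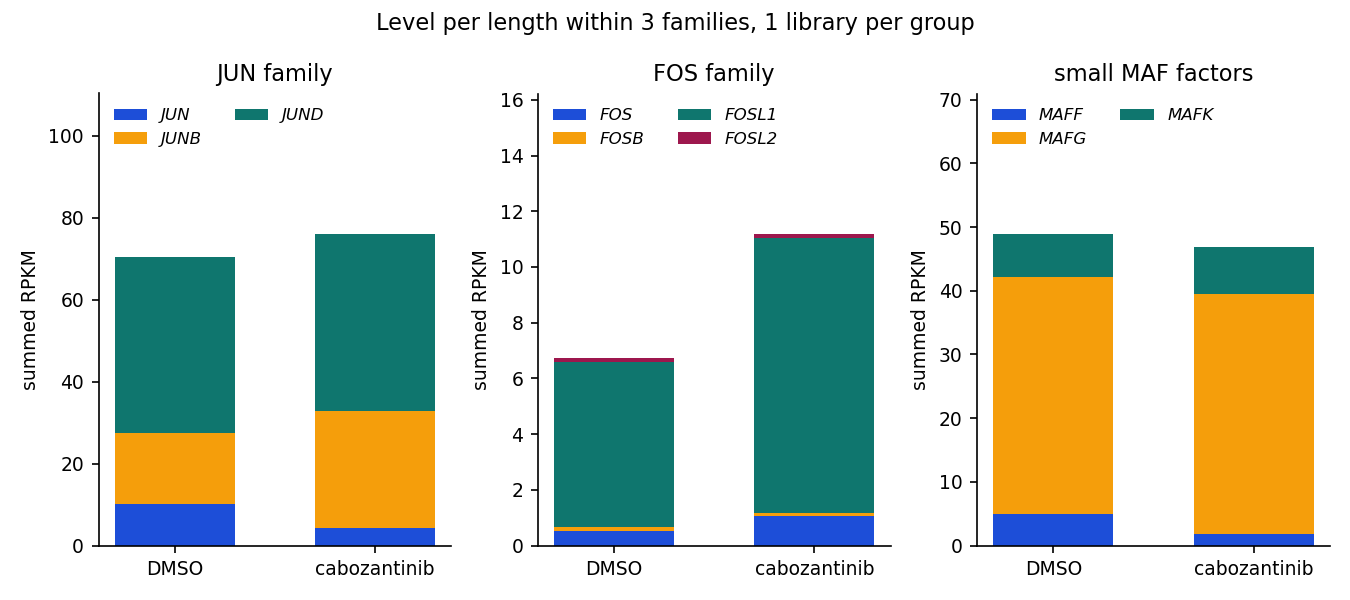
Summed RPKM of the JUN, FOS and small MAF genes in the DMSO and the cabozantinib library, with each gene as a coloured part of its bar and 1 library per group. The JUN bars are of like height with less JUN and more JUNB under cabozantinib, FOSL1 fills most of both FOS bars, and MAFF is a small part of both MAF bars.

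The FOS family was far lower than the JUN family, at 6.73 summed RPKM in DMSO and 11.2 with cabozantinib. FOSL1, which encodes FRA-1, a FOS protein without a strong activation domain whose level follows sustained ERK signalling, made up 87.8% of it in DMSO and 88.2% with cabozantinib. FOSL1 had 254 counts in DMSO and 408 with cabozantinib, or 9.86 and 16.5 CPM, 1.67-fold higher (1.43 to 1.96) and at percentile 94.8. Its interval reached below 1.5-fold. FOSL1 (Entrez 8061) lies on chromosome 11, 65659692 to 65667997, minus strand. The nearest annotated gene, CCDC85B, lies 586 bases away on the other strand and differed the other way, with a log2 ratio of -0.27 (-0.44 to -0.10). No label or header names the strand setting of the counting.

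FOS, the classic immediate early gene, was low in both cultures, with 30 counts in DMSO and 57 with cabozantinib. Its level went from 1.16 (0.786 to 1.66) to 2.30 CPM (1.74 to 2.98), 1.96-fold higher (1.25 to 3.19). This is the widest interval among the called members and its near bound is under 1.5-fold. The ratio of FOS to FOSL1 counts went from 0.118 to 0.140, a change of 1.18-fold whose interval included no change (0.725 to 1.96). FOS (Entrez 2353) lies on chromosome 14, 75745481 to 75748937, and an annotated gene without a symbol that overlaps it on the other strand was at 0 in each library, where up to 3 counts could still have been missed.

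FOSB and FOSL2, the other 2 FOS genes, were close to the limit of detection. FOSB had 13 counts in DMSO and 10 with cabozantinib, 0.505 and 0.404 CPM, and FOSL2 had 15 and 14 counts, 0.582 and 0.565 CPM. Their log2 ratios of -0.31 (-1.67 to 0.98) and -0.04 (-1.20 to 1.11) had intervals too wide for a difference of 1.5-fold either way to be detectable at this depth. FOSB (Entrez 2354) lies on chromosome 19, 45971253 to 45978437, and FOSL2 (Entrez 2355) on chromosome 2, 28615779 to 28637516. An annotated antisense gene overlaps FOSL2 on the other strand and was at 0 in each library. Whether this overlap took reads from the count of FOSL2 was not tested.

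EGR1, a zinc finger factor that reports SRF and ERK activity, had 1045 counts in DMSO and 883 with cabozantinib. Its level went from 40.6 to 35.6 CPM, a log2 ratio of -0.19 (-0.32 to -0.06), larger than counting error but inside 1.5-fold and at percentile 31.9. EGR1 (Entrez 1958) lies on chromosome 5, 137801181 to 137805004, plus strand. Its corepressor NAB2, which EGR1 itself induces, had 24.1 and 24.2 CPM (log2 ratio 0.01, -0.16 to 0.17), and NAB1 had 38.4 and 43.0 CPM. The relatives EGR2, EGR3 and EGR4 had at most 7 counts in either library, so EGR1 was the only EGR gene measured.

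MAFF, a small MAF factor that growth and stress signals induce, had 326 counts in DMSO and 119 with cabozantinib. Its level went from 12.7 to 4.80 CPM, 2.63-fold lower (2.13 to 3.28), at percentile 2.94. The other small MAF genes stayed inside 1.5-fold. MAFG had 194 and 196 CPM (log2 ratio 0.01, -0.04 to 0.07) and MAFK had 22.6 and 24.9 CPM (0.14, -0.03 to 0.30). The ratio of MAFF to MAFG was 2.66-fold lower (2.14 to 3.32) and that of MAFF to MAFK 2.90-fold lower (2.27 to 3.71). MAFG was the main small MAF gene, with 76.0% of their summed RPKM in DMSO and 80.1% with cabozantinib, while MAFF went from 10.2% to 4.05%. MAFF (Entrez 23764) lies on chromosome 22, 38597939 to 38612518, plus strand.

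DUSP1, the nuclear phosphatase that dephosphorylates p38, JNK and ERK, had 297 counts in DMSO and 619 with cabozantinib. Its level went from 11.5 to 25.0 CPM, 2.17-fold higher (1.88 to 2.50), at percentile 97.9, the highest of the members. DUSP1 (Entrez 1843) lies on chromosome 5, 172195093 to 172198203, minus strand. Of 9 other measured dual specificity MAP kinase phosphatases 0 were higher, 3 lower and 6 inside 1.5-fold. Over all measured genes 8.15% were higher and 12.3% lower. DUSP10, a phosphatase of JNK and p38, was 2.79-fold lower (2.21 to 3.56). DUSP8, another of JNK and p38, was 2.27-fold lower (1.56 to 3.39), and DUSP16, which acts on JNK, 1.53-fold lower (1.37 to 1.71). DUSP14 and DUSP22 had log2 ratios of -0.17 and -0.20. The ratio of DUSP1 to DUSP10 counts was 6.06-fold higher with cabozantinib (4.59 to 8.01), from 1.05 to 6.38. DUSP10 had the lowest log2 ratio of the measured phosphatases on this list, which makes that value large. Against DUSP16, the DUSP1 ratio was 3.32-fold higher (2.77 to 3.98). DUSP6, a phosphatase of ERK alone, had 5 and 3 counts.

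By level per length the members fell in a similar order in both libraries, with a few exchanges. In DMSO it was JUND, JUNB, EGR1, JUN, FOSL1, DUSP1, MAFF, FOS, FOSL2 and FOSB, from 42.9 to 0.134 RPKM. With cabozantinib it was JUND, JUNB, DUSP1, EGR1, FOSL1, JUN, MAFF, FOS, FOSL2 and FOSB, from 43.1 to 0.107 RPKM. Neighbours whose counting intervals overlapped were FOSL1 with DUSP1, DUSP1 with MAFF and FOSL2 with FOSB in DMSO, and DUSP1 with EGR1, EGR1 with FOSL1 and FOSL2 with FOSB with cabozantinib. DUSP1 was thus the gene that climbed most in rank and JUN the one that dropped most. With 2 libraries, no likeness of pattern between genes was computed.

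**Figure D3:**
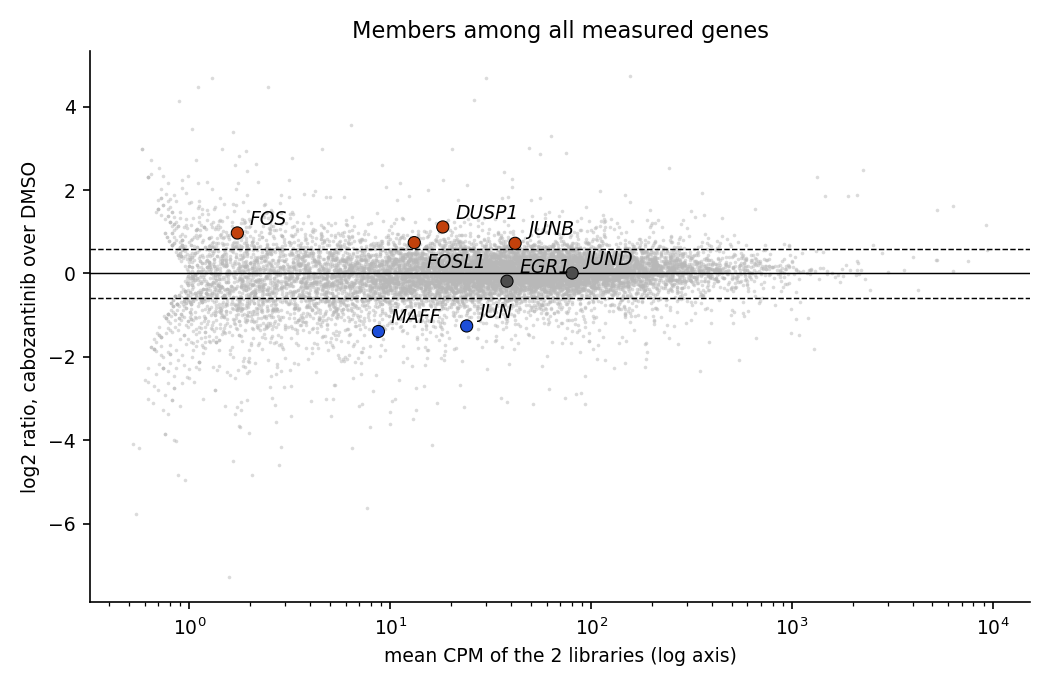
The log2 ratio of cabozantinib over DMSO (vertical axis) against the mean CPM of both libraries (log axis) for all 12536 measured genes in grey, with the 8 measured members named and dashed lines at 1.5-fold. DUSP1, FOS, FOSL1 and JUNB lie above the upper line, JUN and MAFF below the lower line, and EGR1 and JUND between them.

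The authors' deposited table holds a posterior probability that a gene differs between the conditions. It was 0.95 or more for JUN, MAFF and DUSP1, 3 of the 10 genes, and for 4.66% of the 17392 genes in the authors' deposited table. In the authors' deposited table JUN and MAFF had a probability of 0.9999 each, with shrunken folds of 0.415 and 0.379, and DUSP1 had 0.996 with a fold of 2.15. JUNB (0.408), FOSL1 (0.387) and FOS (0.227) stayed well below that probability in the authors' deposited table, with shrunken folds of 1.64, 1.66 and 1.95. The folds were close to those computed here, and the calls of these 3 genes depend on the rule.

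Around the members, 10 lists of related genes were described, with 166 distinct genes of which 127 were measured, 9 higher and 32 lower. Over all measured genes 8.15% were higher and 12.3% lower. Of these genes 9 stand on more than 1 list. Of 11 measured bZIP partners outside the FOS and JUN families 0 were higher and 5 lower. Their median log2 ratio was -0.47. ATF3, a stress-induced repressor that pairs with JUN proteins, had 93.8 CPM in DMSO and 19.9 CPM with cabozantinib, 4.70-fold lower (4.27 to 5.19). JDP2, the JUN dimerization protein, had 9.24 and 2.14 CPM, 4.29-fold lower (3.19 to 5.93). CREB5 was 2.06-fold lower (1.40 to 3.13), whereas ATF2 and ATF1, constitutive partners, had log2 ratios of 0.07 and 0.14. BATF2 was also lower, at 1.51-fold (1.20 to 1.92), as was BATF3, at 2.10-fold (1.21 to 3.87) from 42 and 19 counts.

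Of 9 measured MAF factors and CNC partners 1 was higher and 4 were lower, beside 8.15% and 12.3% of all measured genes. NFE2, the erythroid and megakaryocyte partner of the small MAFs, went from 267 to 448 CPM, 1.68-fold higher (1.63 to 1.73). NFE2L1 and NFE2L2, which encode NRF1 and NRF2, were 1.91-fold (1.84 to 1.98) and 1.80-fold (1.71 to 1.89) lower, and the repressor BACH2 was 2.17-fold lower (1.65 to 2.90). Its relative BACH1 had a log2 ratio of 0.12. NRL, a large MAF factor best known from the retina, was 2.46-fold lower (1.47 to 4.42) from 2.02 CPM, with 52 and 20 counts.

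Among the 28 other measured immediate early genes 5 were higher and 7 lower, beside 8.15% and 12.3% of all measured genes, which also differed in both directions. Their median log2 ratio was -0.26. BTG2, an antiproliferative gene, was 2.52-fold higher (2.33 to 2.73), ZFP36L2, which encodes a protein that destabilizes AU-rich messages, 2.07-fold higher (1.94 to 2.20), and ID2, an inhibitor of bHLH factors, 2.26-fold higher (1.82 to 2.83). HES1, the Notch effector, was 4.57-fold lower (3.80 to 5.58), the nuclear receptor gene NR4A1 2.88-fold lower (1.98 to 4.37) and KLF6 2.17-fold lower (1.98 to 2.38). SRF and KLF10 had log2 ratios of -0.01 and -0.03. Under scaling by total counts 4 were higher and 10 lower, and under the other 2 scalings 5 and 9.

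Upstream stand the genes of the promoter-bound factors and of the kinases, to be read beside the 8.15% higher and 12.3% lower of all measured genes. None of 9 measured genes for SRF, ternary complex factors, MRTFs and coactivators was called, with 0 higher and 0 lower, although 2 were lower under scaling by total counts and 1 under each of the others. Of 23 measured MAP kinase cascade genes 1 was higher and 2 lower: MAP2K3, a p38 kinase kinase, was 1.87-fold higher (1.62 to 2.15), MAP2K5 1.53-fold lower (1.38 to 1.68) and RPS6KA5, which encodes the chromatin kinase MSK1, 1.59-fold lower (1.27 to 1.99). MAP2K2 and MAPK9, the latter a JNK gene, had log2 ratios of -0.03 and 0.04. Of 11 genes that act on the stability of JUN or FOS protein or message 0 were higher and 0 lower, among them ITCH (-0.02), a ubiquitin ligase of JUN proteins, and GSK3B (-0.01), a kinase that marks JUN for degradation.

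**Figure D4:**
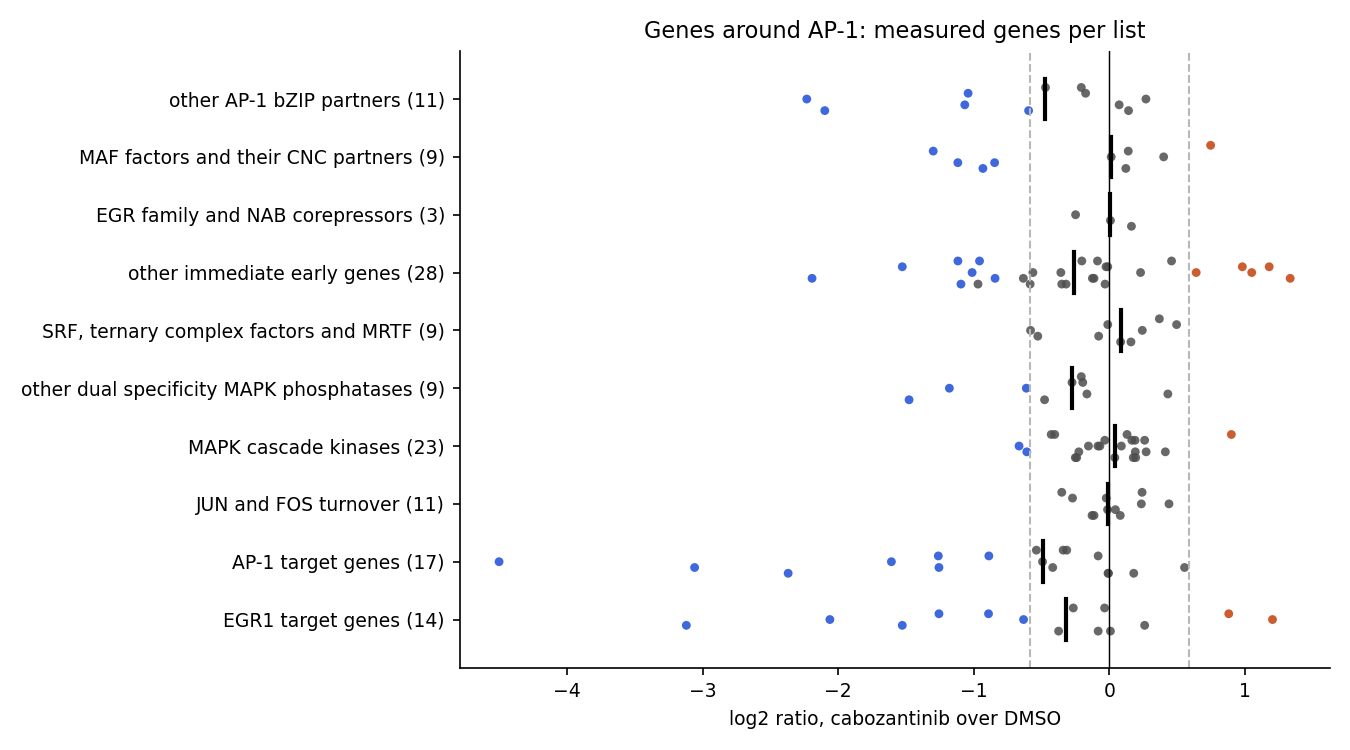
The log2 ratio of cabozantinib over DMSO of each measured gene on the 10 lists around the members, with the number measured in brackets, higher genes in orange, lower genes in blue, the others in dark grey, a black bar at each list's median and dashed lines at 1.5-fold. The kinase, SRF, EGR family and turnover lists stay mostly between the lines. Blue points are more frequent in the bZIP partner, MAF, immediate early, phosphatase and target lists.

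Downstream, genes known to respond to AP-1 and EGR1 held more lower than higher calls, as did all measured genes (12.3% lower and 8.15% higher). Of 30 listed AP-1 target genes 17 were measured, with 0 higher and 7 lower. Their median was -0.49 on the log2 scale. IL6, a cytokine, was counted 82 times in DMSO and 3 times with cabozantinib, which is 22.7-fold lower (8.68 to 130). PLAU, the urokinase protease, had 7.22 and 0.848 CPM, 8.34-fold lower (5.41 to 14.1). AREG, an EGF receptor ligand, had 7.18 and 1.37 CPM, 5.17-fold lower (3.61 to 7.78). FTH1, the ferritin heavy chain, and TXNRD1, thioredoxin reductase, both had a log2 ratio of -0.01. Of 14 measured EGR1 target genes 2 were higher (TP73 and PDGFB) and 6 lower, with a median of -0.32. PDGFB had only 19 and 34 counts, 1.84-fold higher (1.03 to 3.45). FN1, fibronectin, was 8.70-fold lower (7.67 to 9.94), GDF15 4.18-fold lower (3.90 to 4.48) and VEGFA 2.39-fold lower (2.30 to 2.48). Under scaling by total counts TP73 was the 1 target still higher. These genes answer to many factors, and the lists were drawn up with earlier results of these data known.

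Heat stress genes also differed beside the members. Of 5 heat stress markers 4 were higher and 0 lower, beside 8.15% and 12.3% of all measured genes. The summed level of these markers went from 348 to 726 CPM. HSPA1A and HSPA1B, near-identical genes that share reads, were 5.44-fold and 4.84-fold higher and HSPH1 2.41-fold higher, while HSPB1 had a log2 ratio of 0.39. Their part in the values of DUSP1, FOS, FOSL1 and JUNB was not tested. The erythroid markers that define K562 were all measured, 7 of 8 higher, with GATA1 the exception at a log2 ratio of 0.39, and a summed level of 12620 CPM in DMSO and 33412 CPM with cabozantinib. The summed level of 6 T and B cell markers was 11.4 and 3.35 CPM, with MS4A1 at 0 in both, and that of 6 granulocyte and monocyte markers 53.6 and 21.6 CPM, with MPO and ELANE at 0 in both. The 7 fibroblast and epithelial markers summed to 535 and 394 CPM, mostly from keratin genes, with 2 of 5 measured lower. Their part in the results was not tested. Both cultures were of the K562 line, and in bulk RNA a difference in all cells and one in some cells cannot be told apart.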

How the data were processed

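Strand-specific TruSeq libraries were made from column-purified total RNA, per the labels' protocols. The authors deposited raw counts, whole numbers for each Entrez gene, and their reads were aligned with Rsubread to hg19, per the file headers. Its version, the strand setting and the handling of multi-mapped reads are not stated there or in the labels. Gene length (deposited as other annotation) is the summed exon length in bases. The authors' deposited table gives posterior probabilities, a score per gene, and fold ratios, made with a tool that no label or header names. Their direction was read from the counts: in 11445 genes with a summed count of at least 100, the log2 ratio of the unscaled counts minus that of the shrunken fold lay between -0.27 and 0.09. Another 4 columns of that table hold values by condition without a sample name and were not used.

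The libraries held 25025243 (DMSO) and 25505289 (cabozantinib) counts and were scaled by TMM in edgeR 4.0.16 (R 4.3.3). Ratios used a pseudocount of 0.5, with Clopper-Pearson intervals of the 2 counts and conditional exact intervals for ratios between genes. Levels have exact Poisson intervals. All 10 members were named, and from each list up to 3 called each way by the interval bound nearest no change and 2 with the smallest log2 ratio; BATF2, BATF3, NRL, MAFK, EGR2, EGR3, EGR4, DUSP6, CCDC85B and markers listed at 0 were named after their values were seen, and 1 gene the rule names is not reported here. The members and lists were chosen with earlier results of these data known. The scripts were tested on simulated counts. Alternatives covered scaling (total counts, upper quartile, DESeq2 1.42.0), filter, pseudocount, threshold, deposited fold and length. Python 3.11.15 with scipy 1.17.1 and pandas 2.3.3 was used. Gene positions are on hg19 and promoter positions on GRCh38.p14, both counted from 1.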

Additional observations from a re-analysis of the deposited data

How the results depend on the processing

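The direction and the call of JUN, MAFF, DUSP1, FOS, FOSL1 and JUNB were the same under all scalings and pseudocounts and with the deposited fold. Over 87 pairs of member and alternative, 84 kept the call as higher, lower or neither, where neither covers inside the threshold and not measured. The other 3 were weaker, namely FOS, FOSL1 and JUNB at 2-fold, which left 1 member higher in place of 4. The filter of 5 CPM left no value for FOS, FOSB and FOSL2. The median log2 ratio of the members moved to 0.28 under scaling by total counts (the median of all genes moved from 0.01 to -0.07), to -0.015 without a filter and to 0.0094 with 5 CPM. The filters change which members enter, 10 and 7 in place of 8, whereas 8 also entered under total counts. As shares of family counts without length, JUN held 23.3% in DMSO and 9.62% with cabozantinib, JUNB 21.7% and 35.5%, JUND 55.1% and 54.9%, FOSL1 81.4% and 83.4%, and FOSL2 4.81% and 2.86%. No paired analysis was possible because each group holds 1 library. Depth limits FOSB, FOSL2 and FOS, with at most 57 counts in a library.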
